A study of Homo sapiens with 4 samples.

Results

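The 10 transcription regulators of hemogenic endothelium were examined in CD31+ cells with and without HAND1 overexpression. They were the rows of the deposited table with the symbols RUNX1, CBFB, GFI1, GFI1B, SPI1, MYB, TAL1, LYL1, LMO2 and LDB1, 10 of 58229 genes in all. GFI1B had a second row that was listed at 0 in all libraries, and the row with the higher mean was used. The cells came from the human embryonic stem cell line H1, an established line, and RNA was sequenced in 2 Control and 2 HAND1_OE libraries. Both groups were differentiated with activin A and BMP4 and then with VEGF and bFGF, and CD31+ cells were collected at day 8. The groups differ by the overexpression of HAND1, which the study carried out before the transition from HEPs (hemogenic endothelial cells) to HPCs (hematopoietic progenitor cells). The labels do not give the vector, the number of clones, or whether the libraries of a group came from separate cultures, so the p-values below measure only the spread between these libraries. Values are FPKM, which divides the fragments of a gene by transcript length and library depth.

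Hemogenic endothelium is endothelium that gives rise to blood cells through the endothelial to hematopoietic transition (EHT). RUNX1, which binds DNA as a heterodimer with CBFB, is required for EHT, and its targets GFI1 and GFI1B repress endothelial genes in the cells that leave the vessel wall. TAL1 or its paralog LYL1 binds E-boxes together with an E protein and, through the bridging protein LMO2 and the scaffold LDB1, joins a GATA factor in one complex. SPI1 (PU.1) drives myeloid and lymphoid genes, and MYB maintains definitive progenitors. HAND1 is itself a basic helix-loop-helix factor, expressed in mesoderm, heart and extraembryonic tissue.

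The targeted gene was examined first. HAND1 measured 12.1 and 14.3 FPKM in Control against 520 and 517 FPKM in HAND1_OE, with a log2 difference of 5.20 (SE 0.152; limma, adjusted p = 0.00145), as the labels state. All log2 differences are of log2(FPKM + 1), HAND1_OE minus Control, which understates the change of low genes. A gene was tested with limma where 2 or more libraries reached 1 FPKM, which left 14622 genes, and a gene was called at a Benjamini-Hochberg adjusted p under 0.05 over all of them. Of these, 309 were called lower (2.11%) and 299 higher (2.04%). The median log2 difference over all genes tested was -0.08. The libraries held an estimated 21600000 to 26100000 fragments, read from how much 1 fragment is worth in weakly expressed genes of 1 exon.

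With HAND1 overexpression 7 of the 10 regulators fell, against a background of 2.11% of genes tested, and 0 rose, against 2.04%. At an unadjusted p under 0.05 in limma 0 rose as well. The genes that fell were RUNX1, GFI1B, SPI1, GFI1, MYB, LMO2 and LDB1. TAL1, LYL1 and CBFB were not called. The median log2 difference of the 10 was -1.47. Both HAND1_OE libraries lay below both Control libraries for 8 of the 10, all but CBFB and LYL1, and for 30.1% of all genes tested. All 10 passed the filter on low values, GFI1 and GFI1B through the Control libraries alone. With the filter dropped and each gene above 0 tested (29860 genes), limma called 0 of the 10 and 0 genes in all, and 7 of the 10 had an unadjusted p under 0.05, all lower. In bulk RNA, fewer cells that express a gene and less RNA per cell cannot be told apart.

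**Figure D1:**
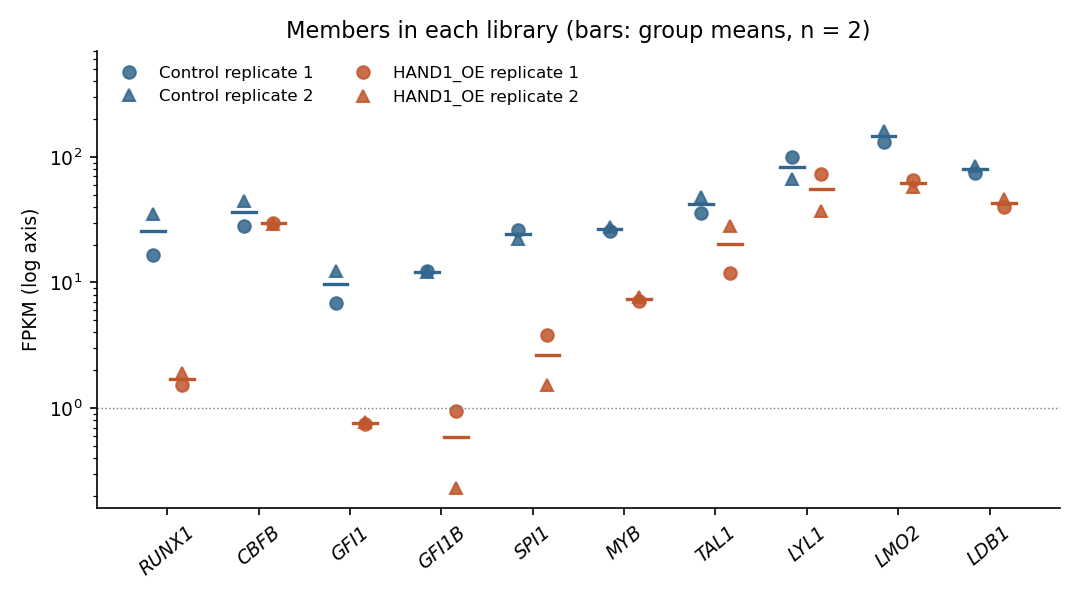
FPKM (log axis) of the 10 regulators in each library, with group means as bars (n = 2) and a dotted line at 1 FPKM. GFI1 and GFI1B lie below 1 FPKM in both HAND1_OE libraries, while the points of CBFB and LYL1 overlap between groups.

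The sequences before transcription starts are shown where they hold a match to a binding motif of another member or of a GATA factor and overlap no GENCODE 29 exon. RefSeq promoter windows (250 bases before to 50 after a start, GRCh38.p14) were at hand for 7 of the 10 genes, 11 windows in all. The 250 bases before the start are given 5′ to 3′ on the strand of the gene. Capitals mark matches on either strand. The motifs searched were TGTGGT for RUNX factors, AGATAA for the GATA family, GAGGAA for PU.1 and other ETS factors, and CATCTG, an E-box that is one form of the general E-box CANNTG. The first TAL1 stretch lies before the gene and the other 4 lie inside RUNX1, GFI1, TAL1 and LDB1, which have longer transcripts.
RUNX1, chr21:34888700-34888949, minus strand: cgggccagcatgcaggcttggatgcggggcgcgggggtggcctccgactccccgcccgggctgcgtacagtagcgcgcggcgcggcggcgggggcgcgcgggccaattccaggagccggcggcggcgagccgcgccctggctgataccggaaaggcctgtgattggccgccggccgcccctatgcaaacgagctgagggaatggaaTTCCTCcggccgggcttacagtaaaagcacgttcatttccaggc
GFI1, window 2, chr1:92486100-92486349, minus strand: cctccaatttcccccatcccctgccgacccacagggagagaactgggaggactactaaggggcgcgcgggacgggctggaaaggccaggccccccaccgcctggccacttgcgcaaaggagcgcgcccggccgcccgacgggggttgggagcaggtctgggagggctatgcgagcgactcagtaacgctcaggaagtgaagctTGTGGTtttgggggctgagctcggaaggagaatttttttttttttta
TAL1, window 1, chr1:47232336-47232585, minus strand: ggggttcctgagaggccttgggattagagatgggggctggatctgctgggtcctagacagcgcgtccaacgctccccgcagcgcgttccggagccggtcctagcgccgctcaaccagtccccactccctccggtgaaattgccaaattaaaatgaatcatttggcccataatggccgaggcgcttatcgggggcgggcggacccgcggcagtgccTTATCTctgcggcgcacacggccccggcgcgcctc
TAL1, window 2, chr1:47231716-47231965, minus strand: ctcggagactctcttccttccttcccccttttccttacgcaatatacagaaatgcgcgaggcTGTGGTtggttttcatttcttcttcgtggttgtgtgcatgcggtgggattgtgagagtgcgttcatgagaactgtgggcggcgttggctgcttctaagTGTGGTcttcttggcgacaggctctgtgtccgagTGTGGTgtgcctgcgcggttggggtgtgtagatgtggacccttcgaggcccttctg
LDB1, chr10:102115003-102115252, minus strand: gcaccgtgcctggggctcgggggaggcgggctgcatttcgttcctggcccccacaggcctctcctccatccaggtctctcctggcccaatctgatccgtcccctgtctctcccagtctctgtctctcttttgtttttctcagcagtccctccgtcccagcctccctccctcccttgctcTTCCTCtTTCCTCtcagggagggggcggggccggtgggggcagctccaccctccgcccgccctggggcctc

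GAGGAA was found in 7 of the 11 full windows, those of RUNX1, GFI1 (window 3), GFI1B (both), MYB, LYL1 and LDB1, and in 27.9% of the 34943 promoter windows of all genes. TGTGGT was found in 2 of the 11, once in GFI1 window 2 and 3 times in TAL1 window 2, and in 13.1% of all windows. AGATAA was found in TAL1 window 1 and LYL1, 2 of the 11, and in 10.4% of all windows. CATCTG was found in both GFI1B windows, against 14.7% of all windows. The general E-box CANNTG was found in 5 of the 11 windows, against 68.7% of all windows. AAATCA, the core bound by GFI1 and GFI1B, was found in 2 of the 11, both of GFI1B, against 13.2%. GAGGAA was thus present both before genes that fell (RUNX1, LDB1) and before one that was not called (LYL1), and a match is a description of the letters, not of binding.

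RUNX1 fell to 6.62% of its Control mean, and its partner CBFB was not called. RUNX1 (chr21:34787801-36004667, GRCh38) measured 16.5 and 35.0 FPKM in Control against 1.52 and 1.89 FPKM in HAND1_OE. The Control libraries differed by 2.12-fold from each other, and the gap to the HAND1_OE libraries was wider than that. The log2 difference was -3.22 (SE 0.353, 95% interval -4.09 to -2.34; limma, adjusted p = 0.0132), and 22 of the 14622 genes tested had a difference as low or lower. CBFB (chr16:67029116-67101058) measured 28.3 and 44.2 FPKM in Control against 29.7 and 29.2 FPKM in HAND1_OE. Its groups overlapped, since Control replicate 1 was the lowest of the 4 libraries. The log2 difference of CBFB was -0.25 (95% interval -0.83 to 0.32; limma, adjusted p = 0.677), and it became 0.06 without Control replicate 2. The level of RUNX1 was 0.710 of that of CBFB in Control and 0.0578 in HAND1_OE, as a ratio of mean FPKM.

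The paralogous repressors GFI1 and GFI1B fell to levels below 1 FPKM. GFI1 (chr1:92474762-92486876) measured 6.89 and 12.5 FPKM in Control against 0.745 and 0.780 FPKM in HAND1_OE. GFI1 had a log2 difference of -2.55 (SE 0.288, 95% interval -3.27 to -1.83; limma, adjusted p = 0.0150). GFI1B (chr9:132945533-132991687) measured 12.3 and 12.0 FPKM in Control against 0.956 and 0.232 FPKM in HAND1_OE. Neither gene overlapped between groups. GFI1B had a log2 difference of -3.08 (SE 0.263, 95% interval -3.74 to -2.43; limma, adjusted p = 0.00754). Depending on the transcript, 0.232 FPKM corresponds to an estimated 6.96 to 11.4 fragments of GFI1B in HAND1_OE replicate 2, so its 4.13-fold gap to HAND1_OE replicate 1 rests on few fragments. The levels of GFI1 in HAND1_OE corresponded to an estimated 42.9 to 50.2 fragments.

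SPI1 and MYB, the lineage and progenitor factors, fell in both HAND1_OE libraries. SPI1 (chr11:47354860-47378576) measured 26.2 and 22.4 FPKM in Control against 3.79 and 1.52 FPKM in HAND1_OE. The log2 difference of SPI1 was -2.86 (SE 0.322, 95% interval -3.66 to -2.06; limma, adjusted p = 0.0149). The HAND1_OE libraries differed by 2.49-fold, and the higher of them was still far below the lower Control library. MYB (chr6:135181315-135219173) measured 25.9 and 27.9 FPKM in Control against 7.14 and 7.69 FPKM in HAND1_OE, with replicates 1.08-fold apart in each group. The HAND1_OE mean of MYB was 27.6% of the Control mean, with a log2 difference of -1.73 (SE 0.150, 95% interval -2.10 to -1.35; limma, adjusted p = 0.00780). SPI1 fell further, to 10.9% of its Control mean. An antisense transcript over MYB, MYB-AS1, was at 0.281 and 0.268 FPKM in Control and listed at 0 in HAND1_OE. The kit does not mark strand, so reads of MYB and MYB-AS1 cannot be told apart where they overlap.

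The 4 members of the TAL1 complex among the 10 regulators kept a larger share of their Control mean than RUNX1, GFI1, GFI1B, SPI1 or MYB. Their shares lay between 42.5% and 66.4%. GATA1, a GATA factor of the complex outside the 10, had means of 27.6 FPKM in Control and 1.02 FPKM in HAND1_OE. LMO2 (chr11:33858576-33892289) had the highest mean of the 10 in both groups, with 131 and 161 FPKM in Control against 66.0 and 57.9 FPKM in HAND1_OE. The log2 difference of LMO2 was -1.22 (SE 0.172, 95% interval -1.65 to -0.79; limma, adjusted p = 0.0258). The scaffold LDB1 (chr10:102107560-102120453) measured 74.5 and 85.4 FPKM in Control against 40.1 and 45.8 FPKM in HAND1_OE. Its replicates were close to each other in both groups, and the groups did not overlap. For LDB1 the log2 difference was -0.88 (SE 0.157, 95% interval -1.27 to -0.49; limma, adjusted p = 0.0453), the highest adjusted p among the 7 that fell. LDB1 lost its call without any 1 of the 4 libraries and kept it in 2 of 11 alternatives, with limma adjusted p-values from 0.0144 to 0.218. LMO2 lost its call without Control replicate 2 (limma, adjusted p = 0.0973) or HAND1_OE replicate 2 (0.0533), in a range of 0.0186 to 0.170 over its alternatives.

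TAL1 and LYL1, the basic helix-loop-helix members, varied most between HAND1_OE libraries of the regulators examined in this complex. TAL1 (chr1:47216290-47232220) measured 35.8 and 47.8 FPKM in Control against 12.0 and 28.4 FPKM in HAND1_OE. Both HAND1_OE libraries lay below both Control libraries, and they differed by 2.37-fold from each other. For TAL1 the log2 difference was -1.12 (SE 0.397, 95% interval -2.11 to -0.13), and it was not called (limma, adjusted p = 0.232). Without HAND1_OE replicate 2 it was -1.71 and called (limma, adjusted p = 0.0103, in a range of 0.0103 to 0.528 over 11 alternatives). LYL1 (chr19:13099033-13103161) measured 99.4 and 66.3 FPKM in Control against 72.8 and 37.2 FPKM in HAND1_OE, so that the groups overlapped. The log2 difference of LYL1 was -0.63 (95% interval -1.52 to 0.26; limma, adjusted p = 0.465). A transcript on the opposite strand over TAL1, AL135960.1, measured 2.21 and 4.38 FPKM in Control against 0.774 and 1.20 FPKM in HAND1_OE, and its reads cannot be told apart from those of TAL1 where they overlap.

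**Figure D2:**
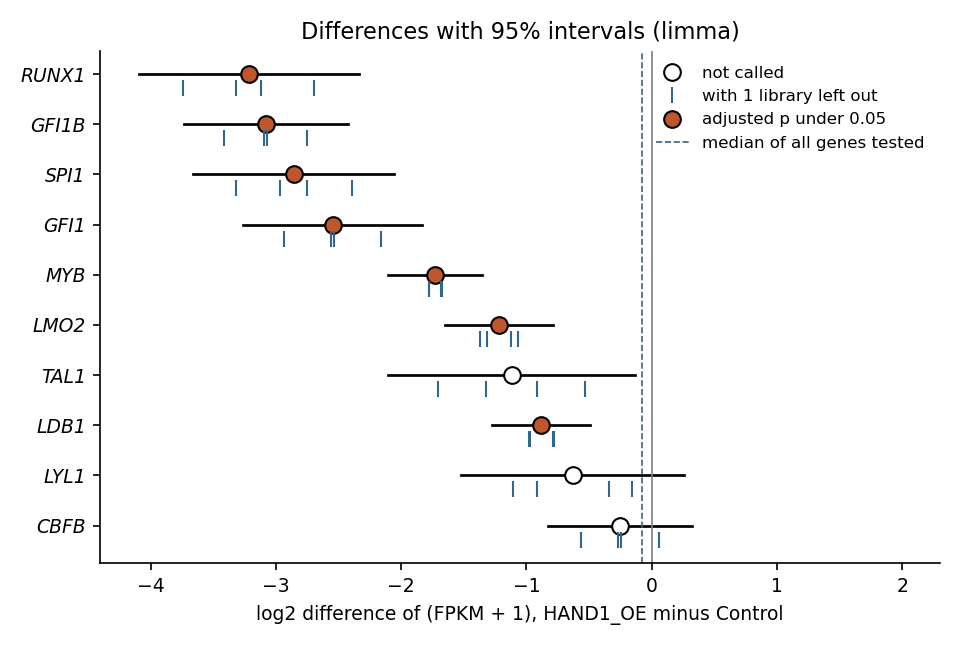
Log2 difference of (FPKM + 1), HAND1_OE minus Control, for the 10 regulators, with 95% intervals from limma (lines). Small ticks give the difference with 1 library left out and the dashed line the median of all genes tested (-0.08). The intervals of LYL1 and CBFB cross 0.

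By level in Control, the order was LMO2, LYL1, LDB1, TAL1, CBFB, MYB, RUNX1, SPI1, GFI1B and GFI1, with means from 146 down to 9.67 FPKM. LYL1 and LDB1, TAL1 and CBFB, MYB and RUNX1, RUNX1 and SPI1, and GFI1B and GFI1 overlapped as neighbours in that order, and the other neighbours lay apart. In HAND1_OE the means ran from 61.9 FPKM for LMO2 to 0.594 FPKM for GFI1B. The order of means there was LMO2, LYL1, LDB1, CBFB, TAL1, MYB, SPI1, RUNX1, GFI1 and GFI1B. LMO2 and LYL1, LYL1 and LDB1, SPI1 and RUNX1, and GFI1 and GFI1B overlapped as neighbours in HAND1_OE, and the other neighbours lay apart. MYB, RUNX1 and SPI1 thus had nearly equal means in Control, at 26.9, 25.7 and 24.3 FPKM, and means of 7.42, 1.70 and 2.66 FPKM in HAND1_OE. Within Control, RUNX1 lay below MYB and SPI1 in replicate 1 (16.5 FPKM) and above both in replicate 2 (35.0 FPKM).

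A set of 6 ratios between partners or paralogs were compared within libraries, as log2 ratios of (FPKM + 1). RUNX1 to CBFB was at -0.75 and -0.33 in Control and at -3.61 and -3.39 in HAND1_OE. RUNX1 to TAL1 was at -1.07 and -0.44 in Control and at -2.37 and -3.35 in HAND1_OE. Both ratios were lower in both HAND1_OE libraries, as was LMO2 to LDB1, which was at 0.80 and 0.91 in Control and at 0.70 and 0.33 in HAND1_OE. TAL1 to LDB1 overlapped between groups, with means of -0.93 in Control and -1.17 in HAND1_OE. LYL1 to TAL1 overlapped as well, at 1.45 and 0.46 in Control and at 2.51 and 0.38 in HAND1_OE. GFI1B to GFI1 had means of 0.35 and -0.18 and also overlapped. With 2 libraries against 2 the two-sided exact permutation test cannot go below p = 0.333, the value it gave for the 3 ratios that did not overlap, and it gave 0.667 or 1 for the others, so none of the 6 could pass a threshold of 0.05.

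**Figure D3:**
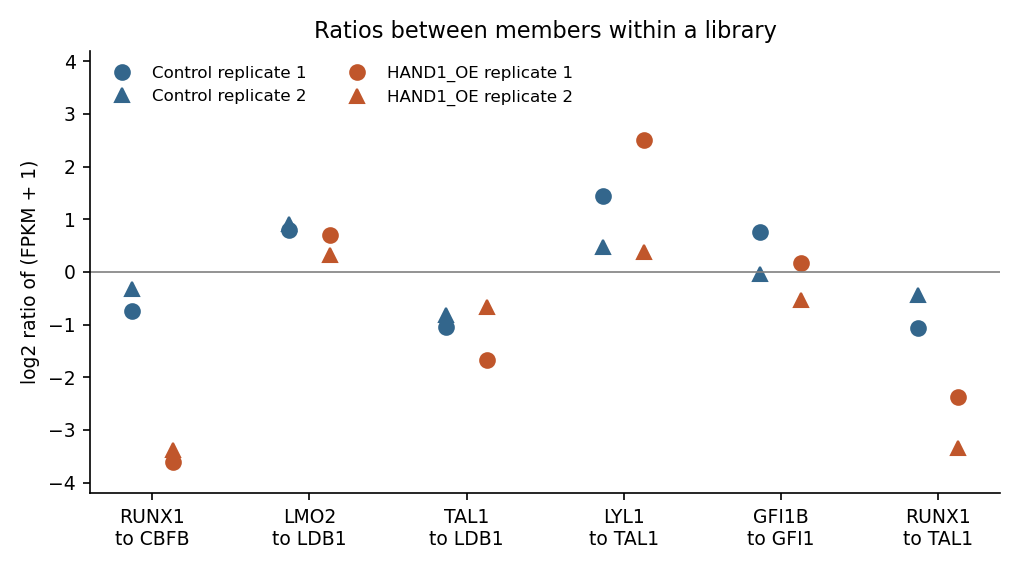
Log2 ratio of (FPKM + 1) between pairs of regulators in each library. RUNX1 to CBFB lies near 0 in Control (-0.75 and -0.33) and below -3 in HAND1_OE, while LYL1 to TAL1 spreads as widely within a group as between groups.

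Of the partners and relatives of the TAL1 complex, 3 of 16 tested fell, GATA1, CBFA2T3 and RUNX1T1. GATA1, the erythroid and megakaryocytic GATA factor, went from 25.6 and 29.6 FPKM in Control to 1.51 and 0.543 FPKM in HAND1_OE (log2 difference -3.86; limma, adjusted p = 0.00700). CBFA2T3 and RUNX1T1, corepressors of the ETO family that join the complex, had log2 differences of -1.78 and -1.45 (limma, adjusted p = 0.0444 and 0.0209), and both lost the call when either Control library was left out. CBFA2T3 also lost it with the replicate block, a pseudocount of 0.1 and either scaling, in 7 of 11 alternatives in all, against 3 of 11 for RUNX1T1. GATA1 kept it without any 1 library. The most abundant partners were not called. LDB2 (a paralog of LDB1) measured 199 and 185 FPKM in Control against 129 and 212 FPKM in HAND1_OE. TCF3 (an E protein that pairs with TAL1) measured 151 and 143 against 114 and 97.0 FPKM. SSBP4, of the family that stabilises LDB1, measured 160 and 124 against 129 and 103 FPKM. The median log2 difference over the 16 was -0.39, and 0 were called higher. At an unadjusted p under 0.05 in limma 8 of the 16 were lower and 1, TAL2, was higher. Over all genes tested 1554 of 14622 were lower at that threshold, and those higher were not counted.

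Of the relatives and cofactors of RUNX1, 0 of 10 tested were called in either direction by limma, with a median log2 difference of -0.16. The unadjusted p in limma was under 0.05 for TLE3 and KMT2A, both lower, 2 genes picked out once their values were known. Of all 14622 genes tested, 1554 were lower at that threshold. The paralogs RUNX2 and RUNX3 stayed under the filter and were not tested. RUNX2 measured 0.489 and 0.380 FPKM in Control against 0.916 and 0.664 FPKM in HAND1_OE. RUNX3 measured 0.668 and 0.388 FPKM in Control against 0.703 and 1.39 FPKM in HAND1_OE. PRMT1, which methylates RUNX1, measured 188 and 141 FPKM in Control against 162 and 134 FPKM in HAND1_OE. The next by level, TLE2 and TLE1, corepressors that RUNX factors recruit, had log2 differences of 0.46 and -0.02. Of the corepressors of GFI1 and GFI1B, 0 of 14 tested were called by limma, with a median of -0.26. The unadjusted p was under 0.05 for 5 of them, RCOR1, RCOR2, HDAC1, GSE1 and ZMYM3, all lower, beside the same 1554 of 14622 genes. HDAC2 had a log2 difference of 0.10, HDAC1 of -0.49 and HMG20B of -0.15. KDM1A (LSD1), the demethylase that GFI1 and GFI1B recruit, measured 57.4 and 48.7 FPKM in Control against 55.2 and 45.8 FPKM in HAND1_OE.

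Among other hematopoietic transcription factors, 4 of 17 tested fell and 0 were called higher. Of the 17, 2 passed the filter through the Control libraries alone. At an unadjusted p under 0.05 in limma 8 were lower and 1, IRF8, was higher. Over all genes tested 1554 of 14622 were lower at that threshold, and those higher were not counted. With 1 FPKM required in every library 3 fell. KLF1 and IKZF1 were not tested there, so the 3 include a gene not among the 4. KLF1, the erythroid globin activator, went from 20.5 and 27.9 FPKM to 1.11 and 0.436 FPKM (log2 difference -3.84; limma, adjusted p = 0.00700). NFE2, a megakaryocytic and erythroid factor, had a log2 difference of -3.76 (limma, adjusted p = 0.00662). IKZF1, the lymphoid factor Ikaros, and HHEX, a homeobox factor of endothelial and blood precursors, had log2 differences of -1.47 and -1.23, and both lost the call without either Control library. Of the blood genes known as targets of the 10 regulators, 9 of 12 tested fell and 0 rose, 3 of the 12 having passed the filter through the Control libraries alone. HBE1, the embryonic beta-like globin, measured 175 and 295 FPKM in Control against 11.8 and 11.1 FPKM in HAND1_OE. ALAS2, the erythroid enzyme that starts heme synthesis, had a log2 difference of -4.18, HBG2 of -4.15 and TYROBP, a myeloid adaptor, of -3.11. HBG2 has a near-identical copy, HBG1, so how fragments were divided between them is uncertain.

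**Figure D4:**
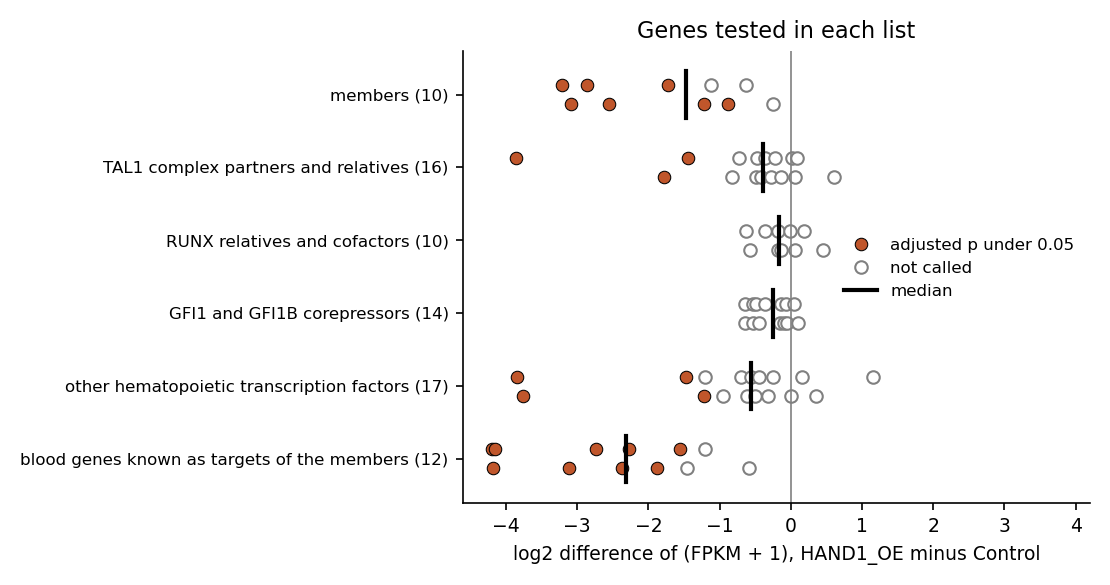
Log2 difference of (FPKM + 1) for each gene tested in each list (number tested in brackets), with genes at an adjusted p under 0.05 filled and the median as a bar. The medians are -1.47 for the 10 regulators, -0.16 for RUNX relatives and cofactors and -2.32 for blood genes known as targets.

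Markers of blood and of other cell types were compared between the groups. Of the blood markers, 7 of 10 tested fell and 0 rose, 3 of the 10 having passed the filter through the Control libraries alone. The 7 became 4 without Control replicate 1 and 5 without any other 1 library, CORO1A and CD53 being lost in each case and RAC2 when either Control library was left out, while WAS gained a call without Control replicate 2. With 1 FPKM required in every library 3 fell, and SPN was not tested. The summed level of the blood markers was 263 and 321 FPKM in Control and 119 and 112 FPKM in HAND1_OE. Most of the HAND1_OE sum was LAPTM5, which was not called. It measured 80.5 and 100 FPKM in Control against 87.6 and 89.9 FPKM in HAND1_OE. SPN (CD43), the surface protein by which the study marks HPCs, measured 18.9 and 21.1 FPKM in Control against 1.92 and 0.974 FPKM in HAND1_OE. PTPRC (CD45) was at or near 0 in all libraries, at most 0.0227 FPKM. PECAM1 (CD31), the sorted antigen, measured 95.5 and 141 FPKM in Control against 92.0 and 160 FPKM in HAND1_OE. Of the 15 endothelial markers, CLDN5 (a tight junction protein) and SOX18 (an endothelial transcription factor) fell and VWF (von Willebrand factor) rose, and their summed level was 2508 and 2076 FPKM in Control and 2439 and 2160 FPKM in HAND1_OE. Of the 9 mesenchymal markers tested, PDGFRB (a pericyte and fibroblast receptor) and the matrix genes POSTN and LUM rose and 0 were called lower. The summed level of the mesenchymal markers was 536 and 439 FPKM in Control and 661 and 595 FPKM in HAND1_OE. The log2 difference was positive for 6 of the 9 and negative for 3. Before adjustment, limma gave p-values below 0.05 to 5 of the 6 and to 1 of the 3, COL1A2. COL1A2 measured 154 and 141 FPKM in Control against 68.6 and 101 FPKM in HAND1_OE, a log2 difference of -0.82. Of the cardiac, pluripotent and epithelial markers, 0 of 5, 0 of 4 and 0 of 5 tested were called by limma. At an unadjusted p under 0.05, 1 cardiac marker was lower and 2 higher, 2 pluripotent markers were lower and 0 epithelial markers differed. Of all 14622 genes tested, 1554 were lower at that threshold, and those higher were not counted. With each gene above 0 tested, 1458 of 29860 genes were higher at that threshold. Without Control replicate 1 the calls of SOX18 and LUM were lost. The part of these cell types in the differences of the 10 regulators was not tested.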

How the data were processed

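RNA was sequenced from CD31+ cells in 2 Control and 2 HAND1_OE libraries, grouped by sample title. The authors deposited 1 table of gene values, taken to be FPKM since the study plots that unit and the values are not whole. BWA, Bowtie and RSEM are named in the submitters' processing notes without versions, and so is hg19, but the coordinates of the table match GRCh38 (55583 of the 55605 genes shared with GENCODE 29 by versioned ID). Of 58365 rows, 45 for Y copies of pseudoautosomal genes and 91 repeats of a gene ID were left out. Counts are not in the table, so estimated fragments come from the step of 1 fragment in single-exon genes and cover no other error.

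Values were tested as log2(FPKM + 1) by two-sided tests in limma 3.58.1 under R 4.3.3, its variance prior following the mean, with Benjamini-Hochberg adjustment over the 14622 genes that reached 1 FPKM in 2 or more libraries. The code was tested on simulated data. The members and gene lists were chosen with earlier results of these data known. Named genes were all members and HAND1, called genes and up to 3 of the most abundant genes not called from the TAL1, RUNX and GFI1 lists, up to 4 called genes with the largest differences from every other list, and PECAM1, SPN and PTPRC. KDM1A, LAPTM5, RUNX2, RUNX3, genes named for an unadjusted p or for a lost or gained call, and the overlapping transcripts were added after their values were seen. Alternatives were a pseudocount of 0.1, other filters, quantile and median-ratio scaling, no trend, a replicate block, each library left out and a fold of at least 2.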

Additional observations from a re-analysis of the deposited data

How the results depend on the processing

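HAND1 and the 10 regulators kept the sign of their difference under every alternative run, except CBFB, whose log2 difference of -0.25 ranged from -0.57 to 0.057 with 1 library left out (0.057 without Control replicate 2). The set of 7 regulators called lower changed with 1 library left out. LDB1 was lost in each case, and LMO2 without Control replicate 2 or HAND1_OE replicate 2. TAL1, not among the 7, gained a call without HAND1_OE replicate 2. With every gene above 0 tested (29860 genes), limma called 0 regulators, 0 genes of each list and 0 genes in all, and HAND1 (log2 difference 5.20) had an adjusted p = 0.153. In that test 7 regulators, and 2352 genes lower and 1458 higher over all, had an unadjusted p under 0.05. With 1 FPKM required in every library GFI1 and GFI1B were not tested, 5 regulators were called and the blood targets called lower went from 9 to 5. TYROBP was among the targets not tested there, and the 5 include a gene not among the 9. LDB1 was also lost with a pseudocount of 0.1, with either scaling, without the trend and by a fold of at least 2. Leaving out 1 library gave 1 to 3 genes for the TAL1 partners, 2 to 5 for other hematopoietic factors, and 137 to 309 lower and 134 to 266 higher over all genes. IRF8 makes up the 1 other factor called higher with quantile normalization, without the trend and with the block.

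Same-numbered libraries deviated together over 14622 genes (r = 0.383), but only 2 pairs exist and the labels give them no shared origin. With a replicate block 7 regulators were called lower, 5 TAL1 partners, 2 corepressors, and 712 genes lower and 597 higher over all.

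The log2 ratio of RUNX1 to CBFB differed by -2.96, or -3.49 with a pseudocount of 0.1. TAL1 to LDB1 turned from -0.24 to 0.26 without HAND1_OE replicate 1 (lowest -0.73). LYL1 to TAL1 turned from 0.49 to -0.58 without HAND1_OE replicate 1 and to -0.0037 without Control replicate 2 (highest 1.55). With 2 libraries per group, and fragments estimated rather than counted, low levels in HAND1_OE (GFI1, GFI1B, SPI1) rest on few fragments. For RUNX1 the estimate depends widely on the transcript. It was 2.69 to 277 fragments in HAND1_OE replicate 1 and 2.25 to 303 in HAND1_OE replicate 2.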
